A study of Rattus norvegicus with 12 samples.

Results

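The genes of the proteasome were followed in 2 rat liver epithelial lines exposed to rapamycin, an inhibitor of the mTOR kinase, or to vehicle. Members were the array probe sets with 1 gene symbol that starts with Psma, Psmb, Psmc, Psmd, Psme, Psmf or Psmg and a digit. This rule gave 46 genes on 60 probe sets, out of 14218 genes on 20832 probe sets with 1 symbol. Of the 46 genes, 44 encode subunits, activators, an inhibitor or assembly factors, and the other 2, Psmc3ip and Psme3ip1, encode interacting proteins that are not subunits. The groups were WB311 cells with rapamycin, WB311 cells with vehicle, WB-F344 cells with rapamycin and WB-F344 cells with vehicle, each of 3 plates on 1 array per plate. Rapamycin was given at 50 nM in DMSO for 24 hr and vehicle was DMSO alone. WB-F344 is a diploid, non-tumorigenic epithelial line from the liver of an adult male Fischer rat, labelled as rapamycin sensitive, with a doubling time of 42 hr. WB311 arose from it spontaneously, is tumorigenic and labelled as resistant, and doubles in 15.5 hr. Each line is a single line, so a difference between them cannot be told apart from a difference between any 2 lines, or from their rates of growth.

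The proteasome degrades proteins that carry ubiquitin chains. Its 20S core is a barrel of outer alpha rings and inner beta rings, and the beta rings hold the catalytic sites. The 19S cap on the barrel binds the ubiquitin chain, removes it, and unfolds the protein with a ring of ATPases. Interferon induces alternative catalytic subunits that replace the constitutive ones in new particles, called immunoproteasomes, which favour peptides for class I antigen presentation. The PA28 and PA200 activators can bind the barrel in place of the cap.

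Values are Robust Multiarray Average intensities on a linear scale, with a median of 59.5 to 62.9 per array. Testing was limited to probe sets that averaged an intensity of 100 or more in a group compared. A call required an adjusted p below 0.05 by limma together with a change of 1.2-fold or more. Of the 60 member probe sets 54 were tested, covering all 46 genes, and 53 averaged at least 100 in every group. The 6 never tested were 2 of Psmb5 and 1 each of Psmc4, Psmd9, Psmd11 and Psme1, and each of these genes has another probe set that was tested. Replicates were plates of 1 line, so the p-values measure the spread between plates. That spread was estimated jointly over the 4 groups, so a p-value within 1 line also carries the spread of the other. WB-F344 plate 2 stood apart in both treatments, where the 3′ probe set of Gapdh exceeded its 5′ probe set by 0.166 with rapamycin and 0.343 with vehicle on the log2 scale, against -0.124 to -0.0415 in the other arrays. Hepatocyte markers were near background in both lines, with Alb averaging at most 33.5 and a summed intensity of 241 to 284 over 7 genes. Of 7 biliary and progenitor markers, 3 averaged at least 100 in each group, and they differed in both directions. With vehicle Krt8 averaged 6103 in WB311 cells and 2986 in WB-F344 cells, Krt18 averaged 247 and 23, Krt7 averaged 76.5 and 5533, and Cd24 averaged 34 and 356, in the same order of lines.

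The interferon-inducible catalytic subunits differed between the lines in opposite directions. Psmb9 was higher and Psmb10 lower in WB311 cells with either treatment, and Psmb8 reached the intensity minimum in WB311 cells alone. Each replaces 1 constitutive subunit: Psmb8 takes the place of Psmb5, Psmb9 of Psmb6 and Psmb10 of Psmb7. The 250 bases before the start of transcription are shown for Psmb8 and Psmb10, because they differed in opposite directions, and for Psmb5, the constitutive counterpart of Psmb8. The sequences are RefSeq's on the rat build GRCr8, all from the minus strand, and are given for chr20:4657032-4657281 (Psmb8), chr19:50743293-50743542 (Psmb10) and chr15:32047380-32047629 (Psmb5). The gene record of Psmb8 reaches 4657049, so the last bases of its window lie within that record. Capitals mark matches on either strand to the core of the interferon-stimulated response element (2 GAAA blocks with 2 bases between them), TTCNNNGAA, the core of the gamma-activated site, TGACNNNGC, the core of the antioxidant response element, and CCAAT, the CCAAT box. No match overlapped another in these sequences.
Psmb8: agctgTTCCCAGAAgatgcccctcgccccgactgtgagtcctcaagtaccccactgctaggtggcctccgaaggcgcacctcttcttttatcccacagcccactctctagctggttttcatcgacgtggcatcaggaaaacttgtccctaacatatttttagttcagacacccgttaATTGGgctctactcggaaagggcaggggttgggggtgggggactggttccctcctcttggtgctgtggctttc
Psmb10: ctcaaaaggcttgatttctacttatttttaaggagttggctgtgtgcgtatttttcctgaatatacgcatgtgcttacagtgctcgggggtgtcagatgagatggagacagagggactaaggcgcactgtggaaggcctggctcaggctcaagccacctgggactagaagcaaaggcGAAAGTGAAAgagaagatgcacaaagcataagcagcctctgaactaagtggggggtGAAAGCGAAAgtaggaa
Psmb5: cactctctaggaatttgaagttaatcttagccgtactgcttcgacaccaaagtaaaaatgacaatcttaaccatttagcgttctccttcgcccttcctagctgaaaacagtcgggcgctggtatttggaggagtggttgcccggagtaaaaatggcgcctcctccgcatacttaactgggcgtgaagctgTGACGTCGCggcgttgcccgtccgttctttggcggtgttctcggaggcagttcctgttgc

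Psmb10 held 2 matches to the interferon-stimulated response element core, at positions -73 to -64 and -17 to -8 from the start of transcription. Psmb8 held none in its window. It had 1 match to TTCNNNGAA, at -245 to -237, and 1 CCAAT on the opposite strand. Psmb5 had 1 match to TGACNNNGC, at -60 to -52. The interferon-stimulated response element core occurred in 5 of the 42 member promoters found in RefSeq's table (11.9%) and in 3.29% of 27457 rat promoters of this length. For TTCNNNGAA these shares were 9.52% and 7.52%, for TGACNNNGC 14.3% and 10.2%, and for CCAAT 50% and 34.3%. No match to these 4 motifs was present in the same window of Psmb9. A match describes the letters of a promoter and does not show that a factor binds there.

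Psmb8, the inducible chymotrypsin-like subunit, had intensities of 174, 168 and 171 in WB311 cells with vehicle, against 41.3, 33.9 and 37.9 in WB-F344 cells with vehicle. With rapamycin it had 134, 139 and 144 in WB311 cells, against 36.1, 29.2 and 35.8 in WB-F344 cells. Every WB311 plate was above every WB-F344 plate. All 6 WB-F344 plates were under 100 and under the array medians, so Psmb8 was tested only because of its level in WB311 cells, and no fold change is given. In bulk RNA, fewer cells that express a gene and less of its RNA per cell cannot be told apart.

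Psmb9, the inducible counterpart of Psmb6, had 367, 323 and 378 in WB311 cells with vehicle, against 172, 156 and 161 in WB-F344 cells with vehicle. On the rapamycin plates it had 334, 317 and 327 in WB311 cells, against 186, 173 and 163 in WB-F344 cells. The lines did not overlap, and the log2 difference was 1.12 (SE 0.08, adjusted p = 2.4e-07) with vehicle and 0.91 (SE 0.08, adjusted p = 1.14e-06) with rapamycin. On GRCr8 the start of Psmb9 lies 457 bases from that of Tap1, on the opposite strand of chromosome 20. Tap1 is a subunit of the transporter that carries peptides into the endoplasmic reticulum. Between the lines it differed by -0.15 (SE 0.09, adjusted p = 0.163) with vehicle. With rapamycin Tap1 averaged 97.5 in WB311 cells and 194 in WB-F344 cells. It was tested there only because of its level in WB-F344 cells, and no fold change is given.

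Psmb10, the inducible trypsin-like subunit, had 179, 203 and 189 in WB311 cells with vehicle, against 430, 439 and 446 in WB-F344 cells with vehicle. Under rapamycin its values were 175, 165 and 169 in WB311 cells, against 301, 310 and 308 in WB-F344 cells. All WB311 plates were below all WB-F344 plates. The log2 difference was -1.21 (SE 0.06, adjusted p = 1.68e-08) with vehicle and -0.85 (SE 0.06, adjusted p = 2.37e-07) with rapamycin. These line differences of Psmb9 and Psmb10 were called under every alternative tried.

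**Figure D1:**
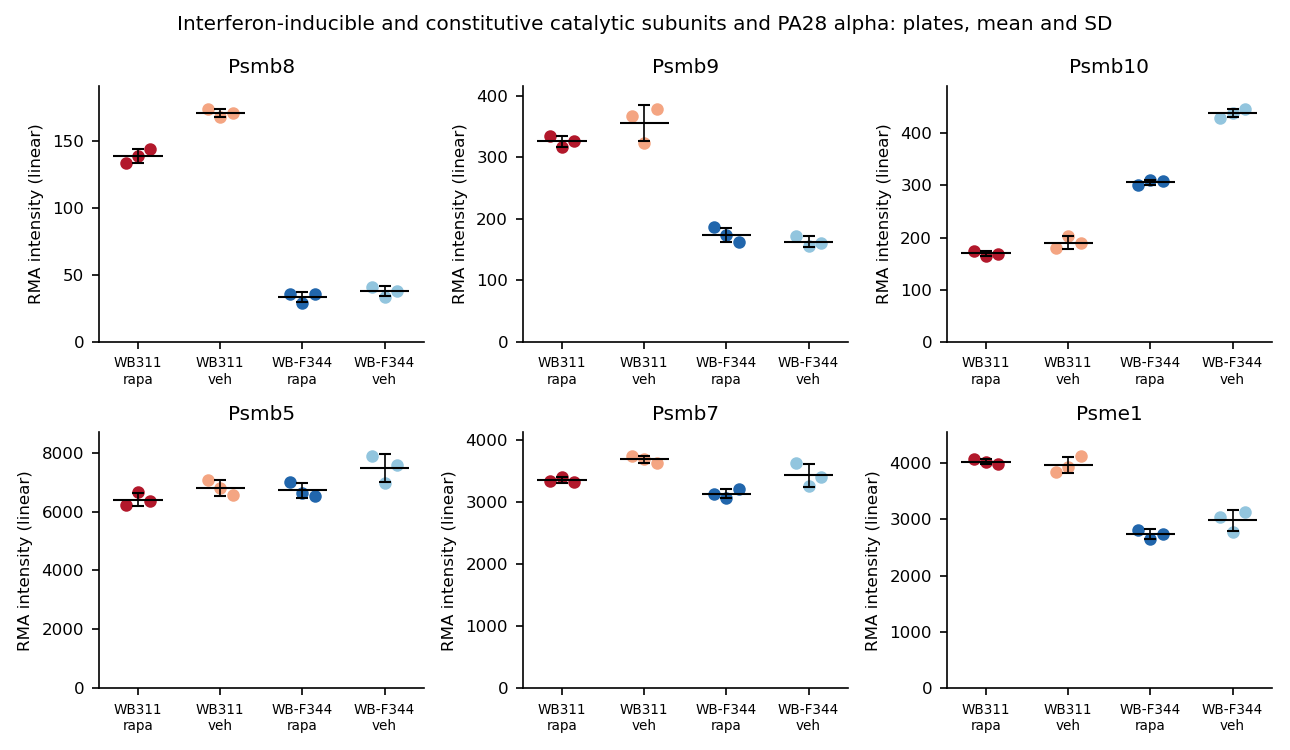
Linear intensity of Psmb8, Psmb9, Psmb10, Psmb5, Psmb7 and Psme1 on each plate (points), with the mean (line) and SD (bar) of 3 plates, for rapamycin (rapa) and vehicle (veh) in WB311 and WB-F344 cells. Psmb8 and Psmb9 are higher and Psmb10 lower in WB311 cells, while the plates of Psmb5 overlap between the lines.

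The constitutive catalytic subunits that were measured were not called between the lines. Psmb5, the constitutive chymotrypsin-like subunit, had 7082, 6791 and 6550 in WB311 cells with vehicle, against 7892, 6980 and 7566 in WB-F344 cells with vehicle. With rapamycin it had 6220, 6654 and 6342 in WB311 cells, against 7017, 6625 and 6514 in WB-F344 cells. The lines overlapped with either treatment, and the log2 differences were -0.14 and -0.07 (adjusted p = 0.0895 and 0.37), with vehicle and with rapamycin in that order. Psmb7, the constitutive trypsin-like subunit, had 3752, 3696 and 3635 in WB311 cells with vehicle, against 3631, 3269 and 3404 in WB-F344 cells with vehicle. On the rapamycin plates it had 3339, 3412 and 3325 in WB311 cells, against 3132, 3076 and 3213 in WB-F344 cells. Its WB311 plates were narrowly above the WB-F344 plates with either treatment, by 0.11 and 0.10 on the log2 scale, and were not called. Psmb6 shares its probe set with another symbol and is not reported here. Among the 6 beta ring genes tested, none was called between the lines, and the median log2 difference was -0.01 with vehicle and -0.02 with rapamycin. Some alternatives added calls. Psmb3 was called lower in WB311 cells with rapamycin after cyclic loess, at -0.335 (adjusted p = 0.00339). The same held after centring on expressed probe sets, at -0.305 (adjusted p = 0.0254), and without WB-F344 rapamycin plate 2. Without WB-F344 vehicle plate 2, Psmb2 was called lower with vehicle, at -0.30 (adjusted p = 0.0074).

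Over all members with vehicle, 9 probe sets were higher and 10 lower in WB311 cells out of 54 tested (35.2%), while 55.5% of all 13871 probe sets tested were called, 27.6% higher and 27.9% lower. The plates did not overlap for 18 members higher and 18 lower in WB311 cells (33.3% each), beside 33.3% and 33% of all. With rapamycin 11 were higher and 10 lower (38.9%), while 58.8% of all 13949 tested were called, 33% higher and 25.8% lower. The plates then did not overlap for 18 members higher and 19 lower, beside 40.4% and 31.9% of all, and 30 members were under 0, beside 44.8% of all. The split with rapamycin was 7 higher and 16 lower after cyclic loess between arrays, and 7 and 14 after each array was centred on the median of expressed probe sets, so the balance of the smaller differences rests on the scaling. The median over members was -0.05 with vehicle and -0.04 with rapamycin, beside 0.02 and 0.06 over all probe sets tested.

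Of 5 activator probe sets, 3 were called higher in WB311 cells with vehicle and 4 with rapamycin, beside 27.6% and 33% of all probe sets. Psme1, the alpha subunit of PA28, had 3846, 3939 and 4131 in WB311 cells with vehicle, against 3048, 2777 and 3138 in WB-F344 cells with vehicle. Under rapamycin its values were 4072, 4020 and 3980 in WB311 cells, against 2817, 2656 and 2750 in WB-F344 cells. The lines did not overlap, at log2 differences of 0.41 (SE 0.06, adjusted p = 0.000128) with vehicle and 0.55 (SE 0.06, adjusted p = 1.04e-05) with rapamycin. Psme2, its beta partner, had 1773, 1709 and 1791 in WB311 cells with vehicle, against 1616, 1501 and 1596 in WB-F344 cells with vehicle. With rapamycin it had 1785, 1812 and 1830 in WB311 cells, against 1562, 1401 and 1472 in WB-F344 cells. It was called with rapamycin only, at 0.29 (SE 0.06, adjusted p = 0.00101), and that call was lost after cyclic loess, after centring on expressed probe sets and without WB-F344 rapamycin plate 2. With vehicle the difference was 0.16 (adjusted p = 0.0301), under the fold change minimum. Psme3, the gamma form of PA28, also shares its probe sets with other symbols and is not reported here.

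Psme4 encodes PA200, a nuclear activator, and its 3 probe sets disagreed. On 1368817_at it had 1493, 1379 and 1554 in WB311 cells with vehicle, against 775, 996 and 718 in WB-F344 cells with vehicle. With rapamycin this probe set had 1352, 1337 and 1238 in WB311 cells, against 731, 854 and 624 in WB-F344 cells. The log2 difference was 0.84 with either treatment (SE 0.13, adjusted p = 0.000215 with vehicle and 0.000193 with rapamycin). On 1387345_at, with 1197, 1120 and 1282 in WB311 cells and 598, 755 and 531 in WB-F344 cells with vehicle, the difference was 0.95 (adjusted p = 6.53e-05), and with rapamycin 0.90. On 1368818_at the lines overlapped with vehicle, with 360, 343 and 386 in WB311 cells and 283, 451 and 328 in WB-F344 cells, at a difference of 0.06 (SE 0.16, adjusted p = 0.748). With rapamycin 1368818_at had 419, 384 and 389 in WB311 cells and 319, 370 and 270 in WB-F344 cells, without overlap. It was not called there, but was in the fit of the compared groups alone, at 0.32 (adjusted p = 0.0458). It was also called at 0.435 without WB-F344 rapamycin plate 2 (adjusted p = 0.039) and without both WB-F344 arrays numbered 2 (adjusted p = 0.0014). WB-F344 plate 2 was the highest of its group on all 3 probe sets with vehicle. Psmf1, the PI31 inhibitor of the core, had 742, 746 and 719 in WB311 cells with vehicle, against 778, 669 and 797 in WB-F344 cells with vehicle. On the rapamycin plates it had 675, 753 and 718 in WB311 cells, against 862, 710 and 793 in WB-F344 cells, and it was not called between the lines with either treatment.

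Among the assembly factors, Psmg4, a small chaperone of alpha ring assembly, had 991, 1013 and 1135 in WB311 cells with vehicle, against 563, 494 and 551 in WB-F344 cells with vehicle. Under rapamycin its values were 1034, 1047 and 1022 in WB311 cells, against 512, 483 and 429 in WB-F344 cells. The lines were well apart, at log2 differences of 0.96 (SE 0.08, adjusted p = 1.7e-06) with vehicle and 1.13 (SE 0.08, adjusted p = 3.86e-07) with rapamycin. Its partner Psmg3 differed by -0.20 and 0.03 and was called with neither treatment. Psmd9, a chaperone of the 19S base, had 584, 660 and 663 in WB311 cells with vehicle, against 907, 787 and 980 in WB-F344 cells with vehicle. With rapamycin it had 534, 565 and 554 in WB311 cells, against 762, 768 and 749 in WB-F344 cells. It was lower in WB311 cells on every plate, by a log2 difference of -0.48 (SE 0.08, adjusted p = 0.000379) with vehicle and -0.46 (adjusted p = 0.000468) with rapamycin.

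Of the 19S ATPases, which unfold the substrate, Psmc5 was lower in WB311 cells and Psmc6 was higher on some of its probe sets only. Psmc5 differed by -0.43 with vehicle and -0.42 with rapamycin (SE 0.06, adjusted p = 7.99e-05 and 7.07e-05). Psmc6 depended on the probe set. The values of 1384323_at were 2017, 1837 and 1870 in WB311 cells and 1100, 1295 and 1119 in WB-F344 cells with vehicle, a difference of 0.71 (SE 0.07, adjusted p = 8.96e-06). For 1379850_at the difference with vehicle was 0.56 (adjusted p = 0.00138), and for 1382385_at it was -0.20 (adjusted p = 0.155), with overlapping plates. With rapamycin the same 3 probe sets gave 0.48, 0.25 and -0.26, and only the first was called. Without both WB-F344 arrays numbered 2, 1379850_at was called higher at 0.285 (adjusted p = 0.0154). On 1382385_at all WB311 plates with rapamycin, at 294, 289 and 295, were below the WB-F344 plates, at 358, 369 and 324. It was called lower after cyclic loess, at -0.33 (adjusted p = 0.00792), and after centring on expressed probe sets, at -0.32 (adjusted p = 0.00739). Psmc1 was lower by -0.35 with rapamycin and was not called with vehicle.

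**Figure D2:**
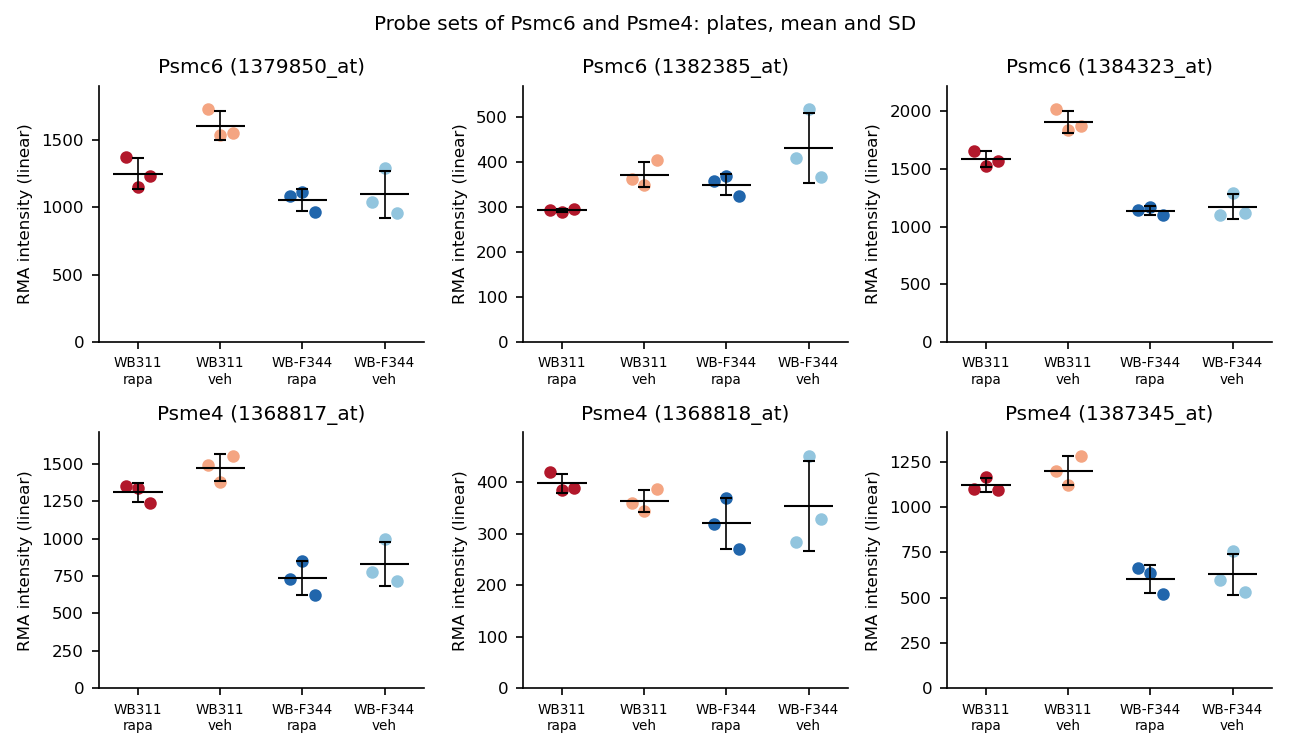
Linear intensity of the 3 probe sets of Psmc6 (top) and of Psme4 (bottom) on each plate (points), with the mean (line) and SD (bar) of 3 plates, for rapamycin (rapa) and vehicle (veh) in WB311 and WB-F344 cells. The lines separate on 2 probe sets of each gene and overlap with vehicle on 1382385_at and 1368818_at. With rapamycin the WB311 plates lie below the WB-F344 plates on 1382385_at and above them on 1368818_at.

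With all plates in the limma fit, the non-ATPase subunits of the 19S cap were called only to the lower side in WB311 cells. With vehicle 4 of 15 probe sets were called lower, 2 of Psmd7 and 1 each of Psmd4 and Psmd8, beside 27.9% of all probe sets. The calls of Psmd4 and both of Psmd7 were lost after centring on expressed probe sets. The Psmd4 call and that of 1 Psmd7 probe set were lost without WB-F344 vehicle plate 3 or WB311 vehicle plate 3, and those of both Psmd7 probe sets without WB-F344 vehicle plate 1. Without that plate Psmd14 on 1394082_at was called higher in WB311 cells with vehicle, at 0.39 (adjusted p = 0.0203). With rapamycin 5 of 15 were called lower, of Psmd7, Psmd8, Psmd12 and Psmd14, beside 25.8% of all. Psmd14 was called on 1386073_at alone, which averaged 369 in WB311 cells and 501 in WB-F344 cells with rapamycin. Its probe sets 1383429_at and 1394082_at averaged 2619 and 2044 in WB311 cells, against 2682 and 2064 in WB-F344 cells. Psmd8, a lid subunit, had 2029, 2024 and 1984 in WB311 cells with vehicle, against 3020, 2213 and 2826 in WB-F344 cells with vehicle. On the rapamycin plates it had 1643, 1882 and 1754 in WB311 cells, against 3390, 3001 and 3083 in WB-F344 cells. The lines did not overlap, and the log2 difference was -0.40 (SE 0.11, adjusted p = 0.00647) with vehicle and -0.84 (SE 0.11, adjusted p = 3.3e-05) with rapamycin. WB-F344 vehicle plate 2 was the lowest of its group, and without it the difference with vehicle was -0.54. The Psmd8 call with vehicle was lost with the methods' t-test (adjusted p = 0.052). In the alpha ring, Psma6 was higher in WB311 cells by 0.29 with vehicle (adjusted p = 0.0021) and by 0.31 with rapamycin (adjusted p = 0.00135). The first call was lost after cyclic loess, and the second also after centring on expressed probe sets and without WB-F344 rapamycin plate 2. Psme3ip1, an interacting protein and not a subunit, had 501, 490 and 528 in WB311 cells and 685, 745 and 724 in WB-F344 cells with vehicle, a difference of -0.50 (SE 0.06, adjusted p = 1.63e-05). With rapamycin it differed by -0.38 (adjusted p = 0.000145), with 518, 536 and 522 in WB311 cells and 696, 693 and 655 in WB-F344 cells.

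**Figure D3:**
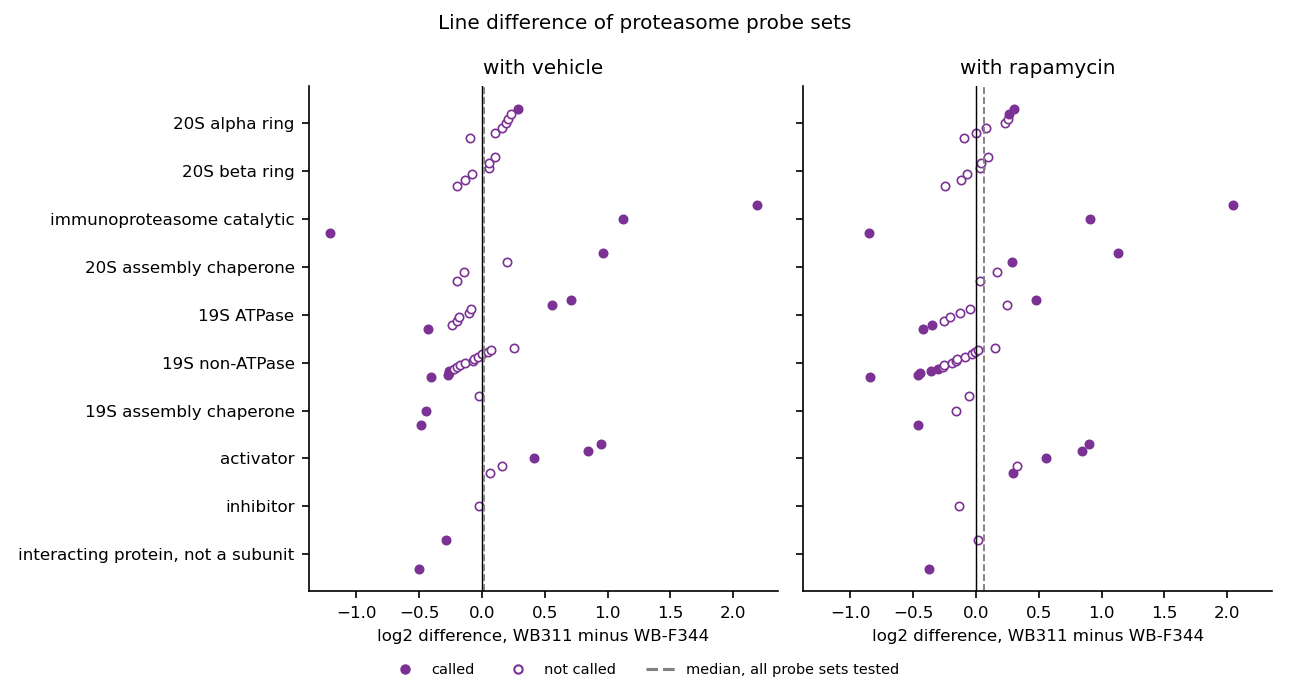
Log2 difference, WB311 minus WB-F344, of each proteasome probe set tested (points) by class, with vehicle (left) and with rapamycin (right). Filled points were called, open points were not, and the dashed line is the median of all probe sets tested, 0.02 with vehicle and 0.06 with rapamycin, and in both panels Psmb9 lies above 0 and Psmb10 below.

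Markers of other cell types also differed between the lines. The mesenchymal list, of 7 genes, summed to 12637 to 13404 in WB311 cells and 41248 to 52472 in WB-F344 cells, with 4 and 5 genes at 100 or more. Of 5 endothelial markers, Tek alone reached 100, and did so in WB311 cells alone. Of 9 leukocyte markers, whose cells carry immunoproteasomes, only Cd14 reached 100 in any group, and Ptprc and Cd74 averaged at most 24.8. The list summed to 717 to 867 in WB311 cells, against 1243 to 1510 with rapamycin and 762 to 877 with vehicle in WB-F344 cells. The part of the mesenchymal and endothelial genes in the line differences was not tested.

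In WB-F344 cells the members called with rapamycin were all lower, and they were a smaller share than among all probe sets. Of 53 probe sets tested, 6 fell and 0 rose (11.3%), while 22.6% of all 13261 probe sets tested were called, 7.58% higher and 15% lower. These were 1005 probe sets higher and 1995 lower, and after cyclic loess 1416 higher and 1516 lower. The 6 were Psmd5, Psmb10, Psmc5, Psmg1, Psmd3 and Psmd13, and no constitutive subunit of the 20S core was among them. An unadjusted p under 0.05 was found for 20 of the 53, beside 5071 of all 13261 probe sets. The median log2 fold change over members was -0.12, beside -0.05 over all probe sets tested. Values were under 0 for 49 of 53 members, beside 58.4% of all probe sets. The plates with rapamycin were all below those with vehicle for 17 members (32.1%, beside 22.7% of all) and all above for 0 (11.7% of all). These small shifts moved with the scaling: after cyclic loess 37 of 53 were under 0, at a median of -0.05 beside 0.01 over all.

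Psmd5, a chaperone of 19S base assembly, had 1245, 1132 and 1194 in WB-F344 cells with rapamycin, against 2071, 1723 and 1846 with vehicle. The groups were far apart, and it fell by 0.66 on the log2 scale (SE 0.07, adjusted p = 0.000102). Psmb10 fell by 0.52 (SE 0.06, adjusted p = 0.000131), on the plates given above, which did not overlap. Psmc5 had 1467, 1652 and 1492 with rapamycin, against 2040, 2067 and 2016 with vehicle, and fell by 0.41 (SE 0.06, adjusted p = 0.000527). These 3 calls were made under every alternative tried.

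The other 3 falls were smaller. Psmg1, a chaperone of alpha ring assembly, had 1434, 1416 and 1382 with rapamycin, against 1868, 1668 and 1837 with vehicle, and fell by 0.34 (SE 0.07, adjusted p = 0.00302). Its call was lost after cyclic loess. Psmd3, a lid subunit, had 646, 768 and 642 with rapamycin, against 784, 954 and 817 with vehicle, and fell by 0.31 (SE 0.09, adjusted p = 0.0228). Plate 2 was the highest of both groups, and the groups did not overlap. Its call was lost in 7 of 17 alternatives, among them those without vehicle plate 2, rapamycin plate 1 or rapamycin plate 3. Psmd13, also a lid subunit, had 1014, 1031 and 952 with rapamycin, against 1206, 1270 and 1174 with vehicle, and fell by 0.28 (SE 0.06, adjusted p = 0.00356). Its call was lost in 5 alternatives, including those without vehicle plate 2 or rapamycin plate 3.

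Psmd8 had the highest fold change among members in WB-F344 cells, at 0.24 (SE 0.11, adjusted p = 0.115), on the plates given above, which overlapped. After cyclic loess Psmd8 was called at 0.32 (adjusted p = 0.0475), and without vehicle plate 1 at 0.34 (adjusted p = 0.0438). The PA28 genes Psme1 and Psme2 were at -0.12 and -0.09 and Psmb9 was at 0.09, and none was called. Psmb8 stayed under 100 in this line and was not tested. With the replicate number as a block 7 members were called, the added one being Psmc6 on 1382385_at, at -0.28 (adjusted p = 0.0141).

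**Figure D4:**
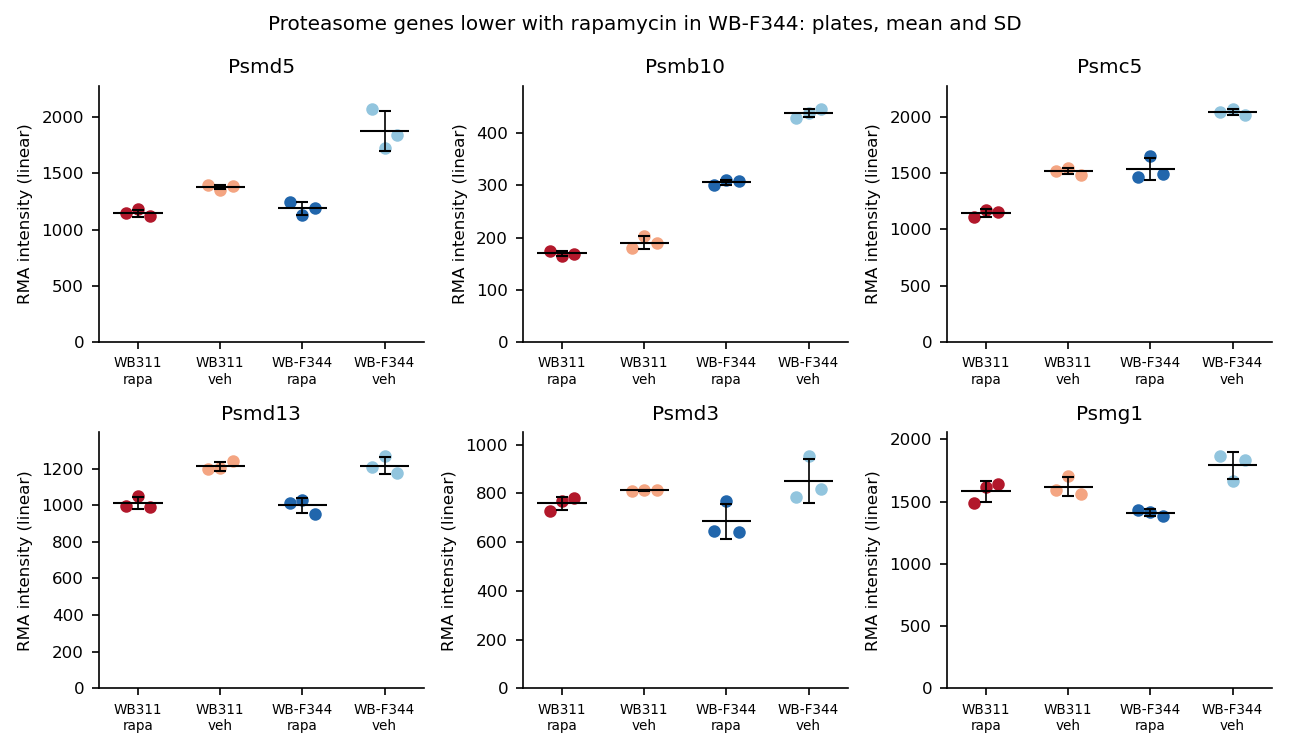
Linear intensity of the 6 proteasome genes called lower with rapamycin in WB-F344 cells on each plate (points), with the mean (line) and SD (bar) of 3 plates, for rapamycin (rapa) and vehicle (veh) in both lines. Psmc5 and Psmd13 were called lower in both lines, and Psmg1 overlaps between rapamycin and vehicle in WB311 cells.

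In WB311 cells the members called with rapamycin were subunits of the 19S cap, all lower, while most members outside the cap were also under 0. Of 54 probe sets tested, 4 fell and 0 rose (7.41%), while 3.72% of all 13135 probe sets tested were called, 1.87% higher and 1.85% lower. The plates with rapamycin were all below those with vehicle for 37 probe sets (68.5%, beside 17.8% of all) and all above for 0 (20.9% of all). Values were under 0 for 47 of 54 members, beside 47.4% of all. An unadjusted p under 0.05 was found for 25 of the 54, beside 2372 of all 13135 probe sets. The median over members was -0.14, beside 0.01 over all, and it lay between -0.17 and -0.13 under all alternatives. The plates of WB311 were less variable than those of WB-F344, at a median SD of 0.0642 with rapamycin and 0.0782 with vehicle in WB311 cells and 0.13 and 0.154 in WB-F344 cells on the log2 scale.

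Psmc5 had 1105, 1176 and 1150 in WB311 cells with rapamycin, against 1522, 1547 and 1487 with vehicle, and fell by 0.41 (SE 0.06, adjusted p = 0.00446). This was the member called under all 17 alternatives in WB311 cells. Psmd12, a lid subunit, had 900, 876 and 923 with rapamycin, against 1186, 1135 and 1150 with vehicle, and fell by 0.36 (SE 0.06, adjusted p = 0.011). Its plates did not overlap, and its call was lost without vehicle plate 1, rapamycin plate 1 or rapamycin plate 2. Psmd13 had 993, 1048 and 991 with rapamycin, against 1196, 1203 and 1241 with vehicle, and fell by 0.26 (SE 0.06, adjusted p = 0.0265). Its call was lost when any 1 of the 6 WB311 plates was left out. The count of 4 was 1 without vehicle plate 1, rapamycin plate 1 or rapamycin plate 2, 2 without vehicle plate 2 or 3, and 3 without rapamycin plate 3.

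Psmd14 encodes the deubiquitinase of the 19S lid and has 3 probe sets. On 1386073_at it had 351, 354 and 402 with rapamycin, against 544, 501 and 491 with vehicle, and fell by 0.47 (SE 0.10, adjusted p = 0.0251). This call was lost without any plate except rapamycin plate 3. The other 2 probe sets were at -0.22 and -0.15 and were not called, although neither overlapped between treatments. The 3 probe sets of Psmc6 were at -0.36, -0.35 and -0.27 (adjusted p = 0.111, 0.125 and 0.0683), with no overlap, and were called in the fit of the WB311 arrays alone. Psmb8 was at -0.30 (adjusted p = 0.103) and Psmd5 at -0.26 (adjusted p = 0.0637), also with no overlap, and both were called in that fit.

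By class, the 8 probe sets of 19S ATPases had a median of -0.26 in WB311 cells and the 15 of non-ATPase subunits one of -0.18, and all 23 were under 0. The alpha ring was at -0.12 and the constitutive beta ring at -0.09, with no call in either. The 20S chaperones were at -0.02 and the activators at 0.02. In WB-F344 cells the medians were -0.14 for the ATPases, -0.11 for the non-ATPase subunits, -0.08 for the alpha ring, -0.10 for the beta ring, -0.19 for the 20S chaperones and -0.12 for the activators. Differences between classes were not tested.

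**Figure D5:**
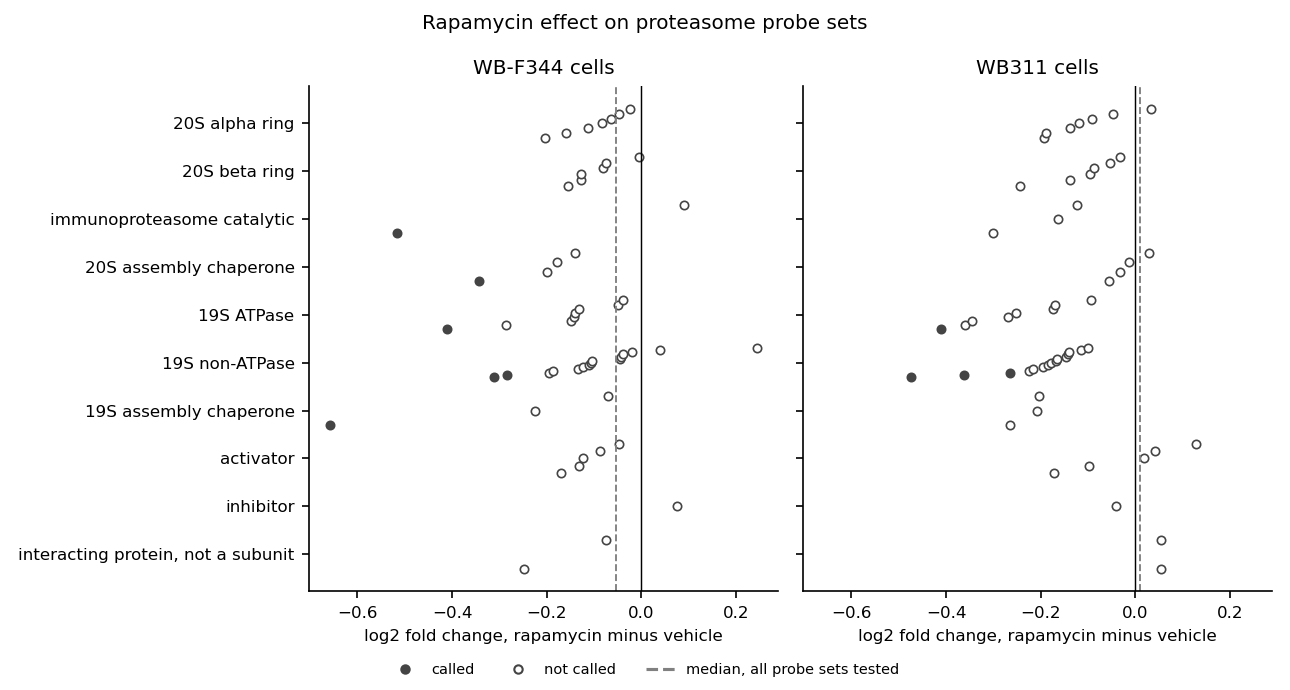
Log2 fold change, rapamycin minus vehicle, of each proteasome probe set tested (points) by class, in WB-F344 cells (left) and WB311 cells (right). Filled points were called, open points were not, and the dashed line is the median of all probe sets tested, -0.05 in WB-F344 and 0.01 in WB311; all 23 points of the 19S ATPases and non-ATPase subunits lie below 0 in WB311 cells.

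The responses of the lines rest on separate plates. Of 53 probe sets tested in both, 42 were under 0 in both lines (79.2%), beside 33.3% of the 12182 probe sets tested in both. Psmc5 and Psmd13 were the 2 called lower in both, out of 121 probe sets in all. Psmc5 had nearly the same fold change in each, and its difference, the WB311 effect minus the WB-F344 effect, was 0.00 (SE 0.08, adjusted p = 0.997). For Psmd13 that difference was 0.02 (SE 0.08, adjusted p = 0.92).

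The difference of the rapamycin effects was called for 2 members of 54 (3.7%, beside 10.7% of all 14214 probe sets, 7.34% above 0 and 3.33% below). Differences under 0 numbered 30 of 54, beside 40.9% of all. Psmd5 fell more in WB-F344 cells, with a difference of 0.39 (SE 0.10, adjusted p = 0.031). In WB311 cells it had 1143, 1180 and 1118 with rapamycin, against 1393, 1355 and 1385 with vehicle. After rapamycin the lines overlapped in Psmd5, at a difference of -0.05 (adjusted p = 0.543), whereas with vehicle WB311 cells were lower by -0.44 (adjusted p = 0.000246). Psmb10 also fell more in WB-F344 cells, with a difference of 0.35 (SE 0.08, adjusted p = 0.0215), and in WB311 cells it was at -0.16 (adjusted p = 0.159). For Psmd8 the difference was -0.44 (SE 0.15, adjusted p = 0.0932), for Psmd14 on 1386073_at it was -0.37 (adjusted p = 0.133), and for Psmg1 0.31 (adjusted p = 0.0609). With the replicate number as a block within each line 6 were called, the added ones being Psmd8 (adjusted p = 0.0203), Psmg1 (0.036), Psmc6 on 1379850_at (0.0464) and Psmc3ip (0.0385). An unadjusted p under 0.05 was found for 9 members of 54, beside 3452 of all 14214 probe sets. Neither call held under all alternatives: without WB311 vehicle plate 1 or WB311 rapamycin plate 1 or 3, the count was 0, without WB-F344 vehicle plate 2 it was 7, and without any other plate it was 1 to 3.

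Among genes that regulate proteasome genes, Nfe2l1 encodes the factor that raises subunit transcription when proteasomes are inhibited, and Ngly1 and Ddi2 process that factor. Nfe2l1 was lower in WB311 cells on 1373278_at, by a log2 difference of -0.82 with vehicle (SE 0.08, adjusted p = 6.81e-06) and -0.93 with rapamycin. Of its other 2 probe sets above 100, 1390068_at was called lower and 1375253_at was not. Rapamycin left Nfe2l1 at -0.01 in WB-F344 cells and -0.11 in WB311 cells, with no call. Ngly1 was lower in WB311 cells by -0.42 with vehicle (adjusted p = 0.00505), and Ddi2 higher by 0.77 (adjusted p = 0.00354). Nfe2l2, the factor of the antioxidant response, rose with rapamycin in WB-F344 cells by 0.53 (SE 0.05, adjusted p = 6.6e-05). In WB311 cells it was at 0.06 (adjusted p = 0.621), and the difference of the effects was -0.46 (adjusted p = 0.00338). In the list of 8 regulators, 2 rose and 0 fell in WB-F344 cells (beside 22.6% of all probe sets called), 1 of 7 tested rose in WB311 cells (beside 3.72%), and 1 was higher and 5 lower in WB311 cells with vehicle (beside 55.5%).

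Of 13 assembly and 19S partners on the array, 0 rose and 1 fell in WB-F344 cells, beside 7.58% and 15% of all probe sets. None was called in WB311 cells, beside 3.72% of all. Ubqln4, a shuttle for ubiquitinated proteins, fell in WB-F344 cells by 0.47 (adjusted p = 0.00881). With vehicle 5 of the 13 were higher and 4 lower in WB311 cells, beside 27.6% and 27.9% of all probe sets. Ecpas, a scaffold that binds proteasomes, was higher by 1.27 (adjusted p = 7.22e-06), and Rad23b, a ubiquitin receptor, by 0.72 (adjusted p = 2.6e-06). Sem1, a 19S subunit outside the naming rule, was higher by 0.51 (adjusted p = 2.08e-05), and Adrm1, the ubiquitin receptor that anchors Uchl5, was lower by -0.39 (adjusted p = 7.59e-05). Uchl5, a deubiquitinase of the 19S cap, fell with rapamycin in both lines, by 0.29 in WB-F344 cells (SE 0.08, adjusted p = 0.0192) and by 0.35 in WB311 cells (SE 0.08, adjusted p = 0.0321). Among 13 ligases, deubiquitinases and segregase genes tested, each by its probe set with the highest mean, it was the 1 called with rapamycin. Of all probe sets 22.6% were called in WB-F344 cells and 3.72% in WB311 cells. The ligase Ube3a was also called in WB-F344 cells on 1382741_at, at 0.30 (adjusted p = 0.0323), and not on its other probe sets. Of 2 ubiquitin-activating enzymes on the array, Uba6 on 1379471_at was higher in WB311 cells with vehicle by 0.57 (adjusted p = 0.000179), and neither was called with rapamycin.

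Class I antigen processing and interferon genes were set beside the inducible subunits. With vehicle, 4 of 9 tested were higher and 3 lower in WB311 cells, beside 27.6% and 27.9% of all probe sets. The light chain B2m was higher by 0.71, the peptide trimmer Erap1 by 0.97 and the loading factor Tapbp by 0.68. Isg15, a ubiquitin-like protein induced by interferon, averaged 307 in WB311 cells and 83 in WB-F344 cells with vehicle, and was tested only because of its level in WB311 cells. The interferon factors Irf1 and Irf9 were lower, each by -0.30 (adjusted p = 0.0244 and 0.00698). In WB-F344 cells rapamycin raised Tap1 by 0.70 (adjusted p = 0.000224) and B2m by 0.45 (adjusted p = 0.000767), and Irf1 and Irf9 fell by 0.32 and 0.33 (adjusted p = 0.0395 and 0.00953). In WB311 cells 1 of 8 was called with rapamycin, beside 3.72% of all probe sets. It was Isg15, which fell by 1.30 (adjusted p = 0.000425). B2m was measured by a second probe set, 1371440_at, which was at 0.10 with rapamycin in WB-F344 cells (adjusted p = 0.519).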

How the data were processed

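The authors hybridized RNA from 12 plates, 3 per group, to Affymetrix rat genome expression arrays and deposited Robust Multiarray Average (RMA) normalized intensity values on a linear scale. Scanner files were not used here, so the background correction was not repeated. Of 31042 probe sets that are not controls, 20832 carried 1 gene symbol and 436 several. Symbols came from the array annotation, and 6 probe sets with several symbols, a proteasome one among them, were left out.

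Intensities were log2 transformed and fitted with limma 3.58.1 in R 4.3.3 over all 12 arrays as 4 groups, with empirical Bayes moderation and Benjamini-Hochberg adjustment over every probe set tested in a comparison. The intensity minimum of 100, the adjusted p of 0.05 and the fold change of 1.2 follow the methods of the study. There were 5 comparisons: rapamycin against vehicle in each line, WB311 against WB-F344 with each treatment, and the difference of the rapamycin effects. The fit was tested on simulated data. With 3 arrays a group their number limits the precision, and an exact permutation test cannot go below p = 0.1. No 2 arrays were identical, and the lowest correlation between arrays was 0.937. Tables were summarised with Python 3.11.15 and pandas 2.3.3.

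The members and lists were chosen with earlier results of these data known. Any member could be named. Values of each plate were given for the catalytic subunits, the activators, Psmf1 and, in each comparison, the 3 called members that rose most and the 3 that fell most, and those of Psmc6, Psmd3, Psmd13 and Psmg1 were added after their values were seen. Of each partner list the text could name Nfe2l1, Nfe2l2, Ddi2 and Ngly1 and the 4 called genes with the smallest p, and Irf1 and Irf9 with vehicle, Sem1 and Adrm1 were also named after their values were seen. Alternatives were no intensity filter, other scalings, other thresholds, the methods' t-test, the fit of the compared groups alone, 1 probe set a gene, a replicate block and leaving out plates. Replicate numbers are shared between the groups, but no label says that they mark a shared batch. Deviations of rapamycin and vehicle plates with the same number correlated at 0.676, 0.871 and 0.561 in WB-F344 cells, in plate order. The same pairs gave -0.0569, -0.000258 and -0.139 in WB311 cells. WB-F344 vehicle plate 1 correlated with rapamycin plate 3 at 0.605, and vehicle plate 3 with rapamycin plate 1 at 0.581. Both exceeded the 0.561 of the plates numbered 3. The correlations thus set plate 2 of WB-F344 apart, and cannot decide whether the numbers pair plates 1 and 3. The main fit took the plates as unpaired, and the replicate block was an alternative only. Promoters are RefSeq's on GRCr8, matched by gene ID.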

Additional observations from a re-analysis of the deposited data

Results flagged for a closer look

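The response to rapamycin differed between the lines for 2 proteasome genes, by a test of the difference itself (limma, adjusted over 14214 probe sets), which is 3.7% of the members tested beside 10.7% of all probe sets. For Psmd5 the WB311 effect minus the WB-F344 effect was 0.392 on the log2 scale, and for Psmb10 it was 0.353. Both effects were below 0 in both lines and farther from 0 in WB-F344 cells. Psmd5 averaged 1147 ± 31.4 with rapamycin and 1377 ± 20.2 with vehicle in WB311 cells, and 1190 ± 56.7 with rapamycin and 1880 ± 176 with vehicle in WB-F344 cells (SD, n = 3 each). Psmb10 averaged 170 ± 5.21 with rapamycin and 190 ± 12.3 with vehicle in WB311 cells, and 306 ± 4.86 with rapamycin and 438 ± 8.21 with vehicle in WB-F344 cells. The call of Psmd5 was lost in 12 of 21 alternatives, 9 of them among the 12 that left out 1 plate, and that of Psmb10 in 8 of 21, 5 of them among those 12.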

How the results depend on the processing

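No called value changed direction under any alternative tried. Of the called members' values under the alternatives, 803 stayed called and 82 did not. Of the uncalled values of the catalytic subunits, the activators and Psmf1, 685 stayed so and 10 became called, and other uncalled members also gained calls. In WB-F344 cells the count of members called with rapamycin was 6, and 11 with no fold change minimum. In WB311 cells it was 4, and 2 with no intensity filter, 7 with each array centred on the median of expressed probe sets (an alternative chosen after seeing the data), and 9 when the fold change was filtered ahead of the adjustment, with the methods' t-test, with only the compared groups in the fit, or without both WB-F344 arrays numbered 2. Between the lines with vehicle it was 19, and 29 with no fold change minimum. For the difference of the effects it was 2, and 0 with no intensity filter, 1 after cyclic loess (Psmd12), 6 when the fold change was filtered first and 7 without both WB-F344 arrays numbered 2. Centring on expressed probe sets also gave 2 there, but neither was Psmd5 or Psmb10. Leaving out both WB-F344 arrays numbered 2 changed no fold change within WB311 cells, only the estimate of the spread. The cause of the other changes was not tested. Leaving out 1 plate gave 4 to 7 calls with rapamycin in WB-F344 cells, 1 to 3 in WB311 cells, 17 to 22 between the lines with vehicle, 20 to 23 with rapamycin and 0 to 7 for the difference.

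With the replicate number as a block, the counts were 7 in WB-F344 cells, 9 in WB311 cells, 19 and 21 between the lines with vehicle and with rapamycin, and 6 for the difference. The block ended no call. The methods' t-test and the fit of the compared groups alone were not run for the difference. Signal over background limits Psmb8 and Isg15, which averaged under 100 in WB-F344 cells. It also limits Tap1, which averaged 97.5 in WB311 cells with rapamycin.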
